A study of Homo sapiens with 16 samples.

Results

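The tumors compared here were grown from A375, a human melanoma line with mutant BRAF, and differed in whether the BET inhibitor JQ1 had been added to the BRAF inhibitor Vemurafenib. In the V group the mice received Vemurafenib at 25 mg/kg, 2 times a day, and in the J+V group they received the same Vemurafenib together with JQ1 at 50 mg/kg daily. Both groups therefore received the BRAF inhibitor, and what differed between them by design was the BET inhibitor given on that background. All cells came from 1 line, injected at both flanks of NOG mice, an immunodeficient strain that lacks T, B and NK cells, and drugs were given into the peritoneum until the tumors were taken on day 5. The comparison rests on 8 of the 16 tumors of the study, with 4 tumors from 2 mice in each group: 16L, 16R, 19L and 19R in V, and 33L, 33R, 34L and 34R in J+V (the number names the mouse and the letter the flank). The other 8 tumors, from mice given vehicle (control) or JQ1 alone (J), are used for their levels and for the test of whether JQ1 acted differently with and without Vemurafenib. The members described are the 12962 genes, of 23260 gene symbols in the table, that had at least 1 FPKM (fragment counts scaled to transcript length and library size) in at least 4 of these 8 tumors.

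BET proteins, a family that includes BRD2 and BRD3, bind acetylated lysines of histones through paired bromodomains and help recruit P-TEFb, the kinase complex that releases RNA polymerase II from its pause near the start of a gene. JQ1 occupies the pocket that takes up the acetyl group. Mutant BRAF drives the MAPK cascade (MEK and ERK) in melanoma, and Vemurafenib inhibits it. Transcripts of inducible programs, such as those turned on by interferon, growth signals or the cell cycle, depend on rapid release of the polymerase and are a common readout of BET inhibitors.

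Melanoma genes were checked first. SOX10, the lineage factor of melanocytes and glia, was at a mean of 12.9 FPKM in V and 15.9 in J+V tumors, and MITF at 8.64 and 9.85, while the pigment genes PMEL (0.101 and 0.168) and TYR (0.172 and 0.102) were close to 0. Of markers of other cells, T and NK cell genes had 2 of 11 listed genes tested, endothelial genes 1 of 12, myeloid genes 4 of 13 and B cell genes 0 of 7, and none of those tested passed the test. MS4A1, which marks B cells, and GNLY were at 0 in all 8 tumors. Of 6 adipocyte markers 2 were tested and 1 rose, LPL (lipoprotein lipase, 0.90, adjusted p = 0.0167), which was named after its value was seen. The mean log2 level of both, relative to V, was -0.35 to 0.21 in V and 0.28 to 0.86 in J+V tumors, and the 6 markers summed to 1.46 to 3.27 and 2.55 to 5.19 FPKM. Their part in the results was not tested. The table holds human gene symbols, the sources used here do not say whether mouse reads had been removed, and these are whole tumors, so that fewer cells of a type and less RNA per cell cannot be told apart. Read depth is unknown, since FPKM do not keep it. The FPKM of a tumor summed to between 1033864.6 and 1383426.2 in V and between 1223331.0 and 1406985.7 in J+V, of which short small nucleolar RNAs took 42.7% to 53.8% and 49.7% to 57.0%.

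Adding JQ1 to Vemurafenib changed 1473 of the 12962 genes at an adjusted p below 0.05 (limma, Benjamini-Hochberg), or 11.4%. Of these, 931 (7.18% of all genes tested) were lower and 542 (4.18%) were higher in J+V tumors, and the median absolute log2 fold change of the called genes was 0.558. Fold changes are differences of log2(FPKM + 0.5) throughout, which understates the change of genes near or below 1 FPKM. At the thresholds the study used (fold above 2, p below 0.01, FDR below 0.1), 170 genes passed (1.31%), 122 lower and 48 higher. The 4 tumors of one group did not overlap the 4 of the other in 2068 genes (16% of all genes tested, made up of 9.23% lower and 6.72% higher in J+V), among them 1225 of the 1473 called. If every tumor was rescaled to the same total FPKM, the median of all genes moved from -0.03 to -0.18 and the split of the calls from 63.2% to 93.0% lower (2148 lower, 162 higher). With short RNAs left out of that total, the median was -0.02 and 64.2% of 1409 calls were lower (905 lower, 504 higher). Under upper quartile scaling 55.2% of 1484 calls were lower. Directions below are those of the FPKM as deposited, and their split depends on the scaling. The counts depended on single mice and tumors. With the tumors of a mouse averaged 435 genes were called, without mouse 33 of the J+V group 147, without V mouse 19 240, without V tumor 19R 575, without J+V tumor 33L 759 and without 33R 633, and with only the 8 tumors in the fit 618.

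The genes that fell most were interferon-stimulated genes, the antiviral program that interferons switch on through ISGF3, a complex that holds STAT2 and IRF9. Of the 12 genes with the largest decreases named by rule, 9 are of this kind: IFI27, ISG15, IFI6, MX1, IFI44L, IFIT1, RSAD2, OAS2 and IFITM1. Of the 32 tested genes of the interferon response list, 23 fell and 0 rose, and the median log2 fold change was -1.28 against -0.03 over all genes tested. In 25 of the 32 the J+V tumors all lay below the V tumors, compared with 9.23% of all genes.

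ISGF3 binds the interferon-stimulated response element (ISRE), searched for here as GAAA and GAAA with any 2 bases between them, on either strand. The 250 bases before the RefSeq start (GRCh38.p14) held it in 3.07% of 27305 promoters in the table and in 2.57% of the 9912 promoters of tested genes, and in 13 of the 25 interferon list members with a promoter entry (52.0%). Below are the last 150 bases before the start, 5′ to 3′ on the gene's strand, with the ISRE matches in capitals, of 4 genes chosen because they hold the element and fell among the most, and of IFITM3, which holds it but did not pass the test. MX1 and RSAD2, also among the 12 largest decreases, held no match in 250 bases. Matches that overlap run together.
ISG15 (chr1:1013347-1013496, + strand): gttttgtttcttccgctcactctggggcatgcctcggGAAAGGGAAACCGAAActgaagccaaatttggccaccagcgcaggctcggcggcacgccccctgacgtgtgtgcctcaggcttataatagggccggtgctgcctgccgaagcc
IFI6 (chr1:27672193-27672342, - strand): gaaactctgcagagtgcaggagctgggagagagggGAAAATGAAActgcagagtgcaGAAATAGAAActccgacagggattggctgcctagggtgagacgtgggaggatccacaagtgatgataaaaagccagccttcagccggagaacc
IFI27 (chr14:94110586-94110735, + strand): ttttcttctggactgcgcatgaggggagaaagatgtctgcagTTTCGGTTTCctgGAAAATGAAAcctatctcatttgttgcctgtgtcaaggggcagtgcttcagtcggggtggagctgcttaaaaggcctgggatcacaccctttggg
IFIT1 (chr10:89392473-89392622, + strand): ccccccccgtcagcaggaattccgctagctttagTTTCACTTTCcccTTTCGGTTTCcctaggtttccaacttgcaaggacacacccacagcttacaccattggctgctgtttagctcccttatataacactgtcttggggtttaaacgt
IFITM3 (chr11:320861-321010, - strand): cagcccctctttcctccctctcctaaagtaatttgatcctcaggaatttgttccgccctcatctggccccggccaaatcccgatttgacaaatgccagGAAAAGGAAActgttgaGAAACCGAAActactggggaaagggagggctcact

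In the list, 11 of the 13 members with a match fell (median log2 fold change -1.38), as did 8 of the 12 without one (median -1.13) and 4 of the 7 without a promoter entry (median -0.74). Over all tested genes with a promoter entry, 12.2% of the 255 with a match were called lower, and 7.78% of the 9657 without one. Called higher were 5.1% and 3.91%. The 31 lower genes with a match include the 11 of the interferon list, so this comparison is not separate from the list.

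ISG15, a ubiquitin-like protein that is attached to other proteins in infected cells, had 13.2, 42.7, 25.9 and 26.5 FPKM in V tumors 16L, 16R, 19L and 19R, and 5.21, 3.35, 2.57 and 4.79 in J+V tumors 33L, 33R, 34L and 34R. The groups did not overlap, and the log2 fold change was -2.55 (standard error 0.40, adjusted p = 0.00181). IFI27, a mitochondrial and nuclear membrane protein, was at 4.34, 17.3, 7.22 and 15.8 FPKM in V and at 1.82, 0.796, 0.50 and 0.824 in J+V, the largest decrease of a named protein-coding gene (-2.85, standard error 0.50, adjusted p = 0.0034). IFI6, an inhibitor of apoptosis, was the most abundant of the group, with 127, 519, 308 and 496 FPKM in V and 95.1, 56.3, 32.2 and 88.1 in J+V (-2.33, standard error 0.48, adjusted p = 0.00757). In all of these 16L was the lowest V tumor and 16R the highest, although both grew in the same mouse.

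Enzymes of the antiviral response and an RNA sensor fell with them. MX1, a GTPase that blocks viral replication, had 25.9, 71.8, 43.8 and 51.0 FPKM in V and 13.7, 9.78, 6.17 and 11.2 in J+V (-2.14, adjusted p = 0.00491). IFIT1, which binds foreign RNA caps, was at 38.2, 114, 65.0 and 69.8 FPKM in V and at 21.3, 15.3, 12.5 and 17.7 in J+V (-1.99, adjusted p = 0.00688). RSAD2 (viperin) fell by 1.97, OAS2, a synthase of the 2-5A messenger, by 1.72 and the membrane protein IFITM1 by 1.68 on the log2 scale. CMPK2, a mitochondrial nucleotide kinase, fell by 1.65, OASL by 1.85, USP18, the protease that removes ISG15, by 1.40 and BST2 (tetherin) by 1.26. The RNA sensor DDX58 (RIG-I) had 14.4, 35.1, 25.7 and 22.6 FPKM in V and 11.4, 9.98, 9.31 and 10.8 in J+V (-1.13, adjusted p = 0.0182). IFIH1 (MDA5), the other RNA sensor of the list, was at 4.49 to 11.7 FPKM in V and 3.02 to 4.86 in J+V and did not pass (-0.74, adjusted p = 0.0821).

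**Figure D1:**
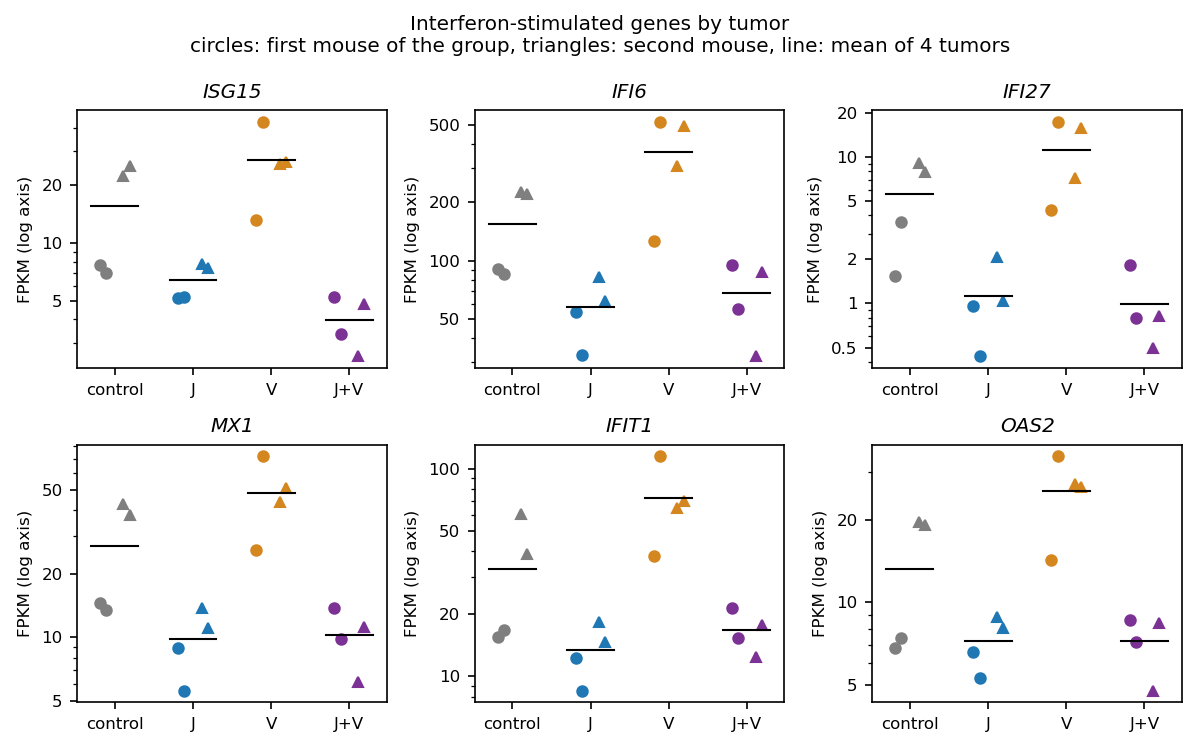
FPKM (log axis) of 6 interferon-stimulated genes per tumor, grouped as control, J, V and J+V, with circles and triangles for the 2 mice of a group and a line at the mean of 4 tumors. In each gene the 4 J+V tumors lie below the 4 V tumors, and the control tumors of mouse 2 lie below those of mouse 5.

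The regulators of these genes divided. IRF9 fell from 20.1 to 28.5 FPKM in V to 8.90 to 15.2 in J+V (log2 fold change -0.85, adjusted p = 0.0222). STAT2, its partner in the complex, was at 13.9 to 19.5 and 14.3 to 17.5 FPKM (-0.13, adjusted p = 0.585), and IRF1 at 3.56 to 4.95 and 3.63 to 4.51 (adjusted p = 0.802), with overlap of the groups in both. IFNAR1, a chain of the receptor for type I interferon, rose from 12.8 to 15.6 FPKM in V to 17.4 to 19.6 in J+V (log2 fold change 0.34, adjusted p = 0.0253). IFNB1, the type I interferon that epithelial and mesenchymal cells make, was listed at 0 in 6 of the 8 tumors and at no more than 0.108 FPKM in the other two. The other list members that did not pass were IFITM3 (59.6 to 87.0 FPKM in V, 58.1 to 71.0 in J+V, adjusted p = 0.40), IFITM2, MX2, IFI35, IFIT2 and UBE2L6. IFNAR1, IFNB1, STAT2 and IRF1, and the members not among the top genes, were named after their values were seen, as were 4 interferon-induced genes outside the list that fell as well, PLSCR1 (-1.06), SAMHD1 (-0.99), PARP9 (-0.85) and EPSTI1 (-1.31). EPSTI1 did not pass the test in 13 of 24 alternative settings, and IFNAR1 did not in 9 of 25.

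The other 2 groups place these levels. The mean log2 level of the 32 genes, set to 0 in the mean of the V tumors, was -0.54, 0.46, -0.02 and 0.10 in V and -1.05, -1.23, -1.59 and -1.14 in J+V. It was -1.36, -1.58, -1.03 and -1.17 in J tumors, so that 3 of the 4 J+V tumors lay within the span of JQ1 alone and 34L just below it. Controls split by mouse, with -1.19 and -1.17 in mouse 2 and -0.26 and -0.24 in mouse 5. ISG15 was at 6.94 to 25.3 FPKM in control and at 5.19 to 7.81 in J tumors. The median log2 fold change of the list was -0.56 for J against control and 0.76 for V against control, comparisons in which limma called 0 genes each in the whole table (953 and 1862 at an unadjusted p below 0.05). On averages per mouse 10 of the 32 genes were lower, without mouse 33 11, and without mouse 19 8.

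Genes of DNA synthesis and mitosis formed the largest group of lower genes. Of 55 tested genes of the G1/S transition 40 fell (median log2 fold change -0.68), of 65 G2/M genes 48 (median -0.88) and of 59 replication-dependent histone genes 50 (median -1.01), with 0 higher in each list. The G2/M list includes PLK1, the mitotic kinase, which had 12.8, 8.55, 10.1 and 16.5 FPKM in V and 2.38, 2.61, 5.77 and 3.57 in J+V. Its log2 fold change was -1.64 (standard error 0.22, adjusted p = 0.000958), and in each V tumor it exceeded every J+V tumor. UBE2C, the ubiquitin-conjugating enzyme of the anaphase-promoting complex, went from 69.1, 74.5, 75.0 and 87.8 FPKM to 21.5, 20.7, 34.9 and 39.9 (-1.43, adjusted p = 0.00114). BIRC5 (survivin) fell by 1.37, the kinase AURKA by 1.12 and PTTG1 (securin) by 0.96. MKI67, the proliferation antigen, was at 20.7, 23.4, 29.0 and 26.4 FPKM in V and at 10.3, 9.52, 21.5 and 14.1 in J+V (-0.88, adjusted p = 0.0122), with 34L inside the range of V.

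Replication histones are transcribed in S phase, and their messages normally carry no poly(A) tail, which the libraries, made from RNA depleted of ribosomal RNA, did not require. HIST1H3C had 227, 171, 141 and 234 FPKM in V and 53.4, 48.9, 86.7 and 80.4 in J+V (log2 fold change -1.53, standard error 0.19, adjusted p = 0.000765). HIST1H3J and HIST1H2AL fell by 1.52 each. These genes are near-identical copies, and how the authors' counting divided reads between them is not given, so single members are less certain than their common direction. Of the 59, 58 had a fold change below 0.

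In G1/S the ribonucleotide reductase subunit RRM2, which supplies deoxynucleotides, went from 61.0, 58.3, 53.4 and 72.3 FPKM in V to 23.2, 17.9, 38.6 and 32.9 in J+V (-1.16, adjusted p = 0.00168). UHRF1, which guides maintenance of DNA methylation, fell by 1.02, and the thymidylate synthase TYMS by 0.98. The transcription factors upstream moved too. FOXM1, which activates G2/M genes, was at 9.35, 8.77, 10.7 and 11.3 FPKM in V and at 3.32, 3.50, 5.58 and 5.67 in J+V (-1.10, adjusted p = 0.00147). MYBL2, a subunit of the activating MuvB complex, fell by 1.11, E2F7 by 1.03 and E2F1 by 0.90. The chromatin enzymes EZH2 (-0.81) and DNMT1 (-0.68), the architectural proteins HMGA1 (-1.12) and HMGB2 (-0.99) and the nuclear lamin LMNB1 (-0.93) fell as well. Of 23 genes of homologous recombination and the Fanconi pathway 8 fell (median -0.40), led by BARD1 (-0.85).

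The promoters of G2/M genes are known for the cell cycle homology region (CHR, searched as TTTGAA) bound by MuvB complexes and for CCAAT boxes (CCAAT) bound by NF-Y, and those of histone genes for repeated CCAAT boxes. Both were searched on either strand in 250 bases before the start, and a match of one may share a base with a match of the other. CHR was held by 29 of 55 G2/M promoters (52.7%), by 13.6% of all promoters in the table and by 9.08% of those of tested genes. A CCAAT box was held by 42 of 48 histone promoters (87.5%), 40 of 55 G2/M promoters (72.7%) and 36.0% of those of tested genes. By itself CHR was in 12.8% of promoters of lower genes, 12.3% of higher genes and 8.61% of genes not called, and the CCAAT box in 47.4%, 33.0% and 35.1%. A CHR with at least 2 CCAAT boxes was in 43 of 782 promoters of lower genes (5.5%), 3 of 391 of higher genes (0.767%) and 100 of 8739 of genes not called (1.14%). The combination was in 18 of 55 G2/M and 14 of 48 histone promoters, so its share among lower genes is not separate from these lists. Shown are 3 of these promoters, with CHR and CCAAT matches in capitals, for the top G2/M gene, for a gene with both motifs side by side and for the top histone gene.
PLK1 (chr16:23678739-23678888, + strand): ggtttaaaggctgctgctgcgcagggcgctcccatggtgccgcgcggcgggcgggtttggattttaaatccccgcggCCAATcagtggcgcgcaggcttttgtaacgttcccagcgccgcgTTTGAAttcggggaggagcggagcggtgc
CDC20 (chr1:43358831-43358980, + strand): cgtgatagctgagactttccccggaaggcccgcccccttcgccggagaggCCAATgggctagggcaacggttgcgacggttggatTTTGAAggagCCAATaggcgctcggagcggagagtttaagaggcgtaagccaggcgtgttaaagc
HIST1H3C (H3C3 in RefSeq, chr6:26045234-26045383, + strand): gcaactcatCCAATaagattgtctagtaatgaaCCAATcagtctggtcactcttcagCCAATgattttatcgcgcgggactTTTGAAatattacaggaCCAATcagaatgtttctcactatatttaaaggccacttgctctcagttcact
CDC20, the activator of the anaphase-promoting complex, was named after its values were seen. It had 18.2, 12.2, 16.3 and 30.3 FPKM in V and 5.40, 5.20, 11.5 and 9.65 in J+V (-1.23, adjusted p = 0.00895). Of the G2/M members with a CHR 23 of 29 fell and of those without 18 of 26, with median log2 fold changes of -0.88 and -0.80.

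The 2 J+V mice differed in these genes. Relative to the mean of the V tumors, the mean log2 level of the G2/M list lay at -1.01 and -1.23 for the tumors of mouse 33 and at -0.44 and -0.54 for those of mouse 34, all below the V tumors at -0.10 to 0.23. The G1/S genes stood at -0.77 and -0.95 in mouse 33, with -0.36 and -0.49 in mouse 34, and the histones at -1.24 and -1.18 against -0.67 and -0.76. Calls depended on the mice: on averages per mouse 11 G1/S, 11 G2/M and 31 histone genes were lower, and without mouse 33 3, 10 and 20. In J tumors the same means lay between 0.11 and 0.28 for G2/M and between 0.24 and 0.51 for the histones, above every V tumor but 19R.

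**Figure D2:**
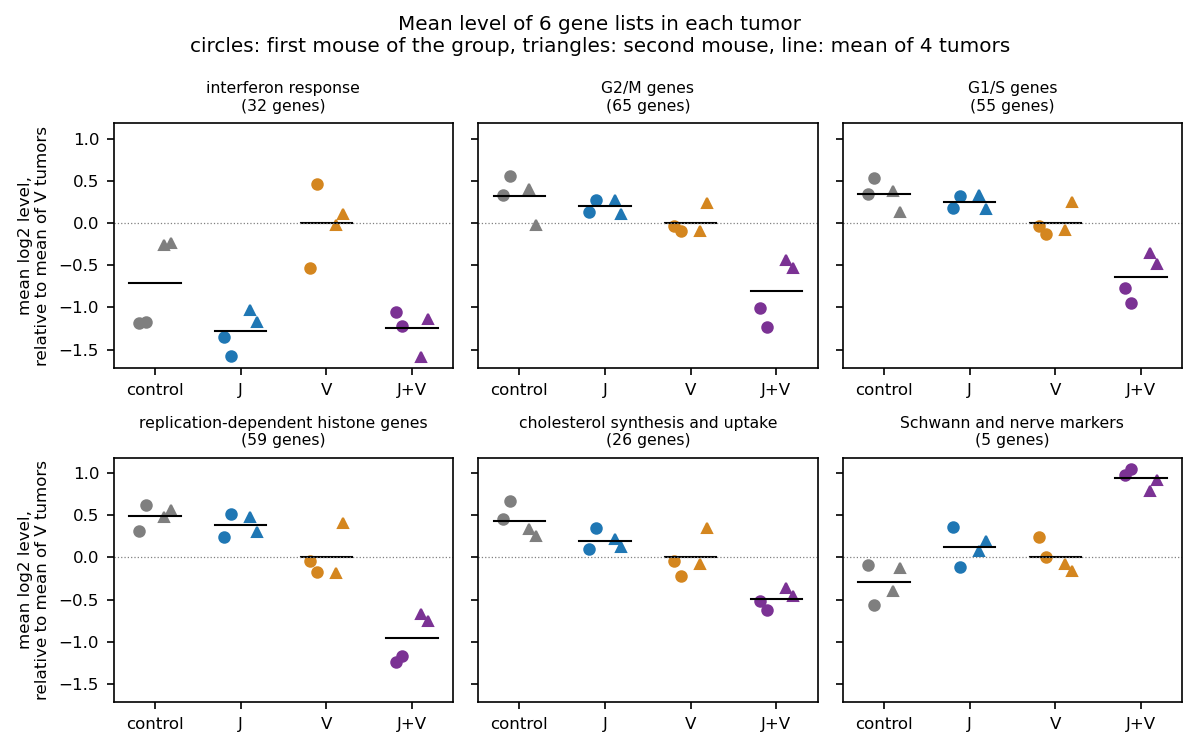
Mean of log2(FPKM + 0.5) over the tested members of 6 gene lists in each tumor, relative to the mean of the V tumors (dotted line at 0), with circles and triangles for the 2 mice of a group and a line at the group mean. J+V tumors lie below all V tumors in the first 5 lists and above them in the Schwann and nerve markers.

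Genes of neural crest and nerve sheath character were among those that rose. Melanocytes and Schwann cells share the neural crest as their origin, and CDH19, S100B and ERBB3 are transcribed in Schwann cell precursors under SOX10. CDH19, a cadherin of that lineage, had 52.9, 53.1, 32.7 and 25.8 FPKM in V and 132, 167, 140 and 153 in J+V, the largest increase of a named protein-coding gene (log2 fold change 1.90, standard error 0.25, adjusted p = 0.00105). S100B, a calcium-binding protein used as a melanoma serum marker, was at 27.9, 20.2, 21.2 and 20.9 FPKM in V and at 63.7, 62.5, 37.1 and 55.1 in J+V (1.24, adjusted p = 0.00244). In none of these did a J+V tumor fall into the range of V.

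Receptors of the same lineage moved in the same direction. ERBB3, the neuregulin receptor, had 17.7, 17.3, 18.0 and 14.0 FPKM in V and 38.1, 51.7, 35.9 and 30.0 in J+V (1.17, adjusted p = 0.00148), while control tumors were at 11.4 to 19.9 and J tumors at 13.3 to 16.5. EDNRB, the endothelin receptor, rose from 11.3 to 15.9 FPKM to 22.0 to 27.0 (0.79, adjusted p = 0.0077). RXRG, a retinoid receptor linked to drug-tolerant neural crest-like cells, was at 0.645 to 1.66 FPKM in V and at 2.47 to 4.11 in J+V (1.27, adjusted p = 0.00348). PTPRZ1 (1.29), GPR37 (1.10) and NRCAM (0.97), glial and neuronal membrane proteins named after their values were seen, rose too. SOX10 itself, at a mean of 12.9 and 15.9 FPKM, is described above, and other genes of the program gave no change past the test: NGFR, the receptor that defines neural crest stem cells, had 0.372 to 2.01 and 0.577 to 2.17 FPKM (adjusted p = 0.934), and AXL 6.59 to 19.4 and 4.98 to 10.2 (adjusted p = 0.364). MITF, the master factor of melanocytes, was at 6.88 to 11.0 and 8.47 to 12.8 FPKM (adjusted p = 0.434).

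By list, 3 of 5 tested Schwann and nerve markers rose and 0 fell (median 1.24), with PMP22 (36.1 to 47.1 FPKM in V, 31.2 to 65.0 in J+V) not past the test, and GFAP and MBP, which mark glia and myelin, below 0.5 FPKM in all 8 tumors. Of 19 neural crest-like genes 5 rose and 1 fell (median 0.07, but -0.38 without mouse 34 and -0.06 under a common total FPKM), and of 13 melanocyte genes 3 rose and 1 fell (median 0.18). On averages per mouse 3, 5 and 2 members of these lists were still higher. The Schwann and neural crest-like lists share CDH19, the highest member of each (1.90), so their counts overlap. CDH19 and ERBB3 also passed without mouse 33 and without mouse 19, whereas S100B had an adjusted p of 0.0734 without mouse 33.

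**Figure D3:**
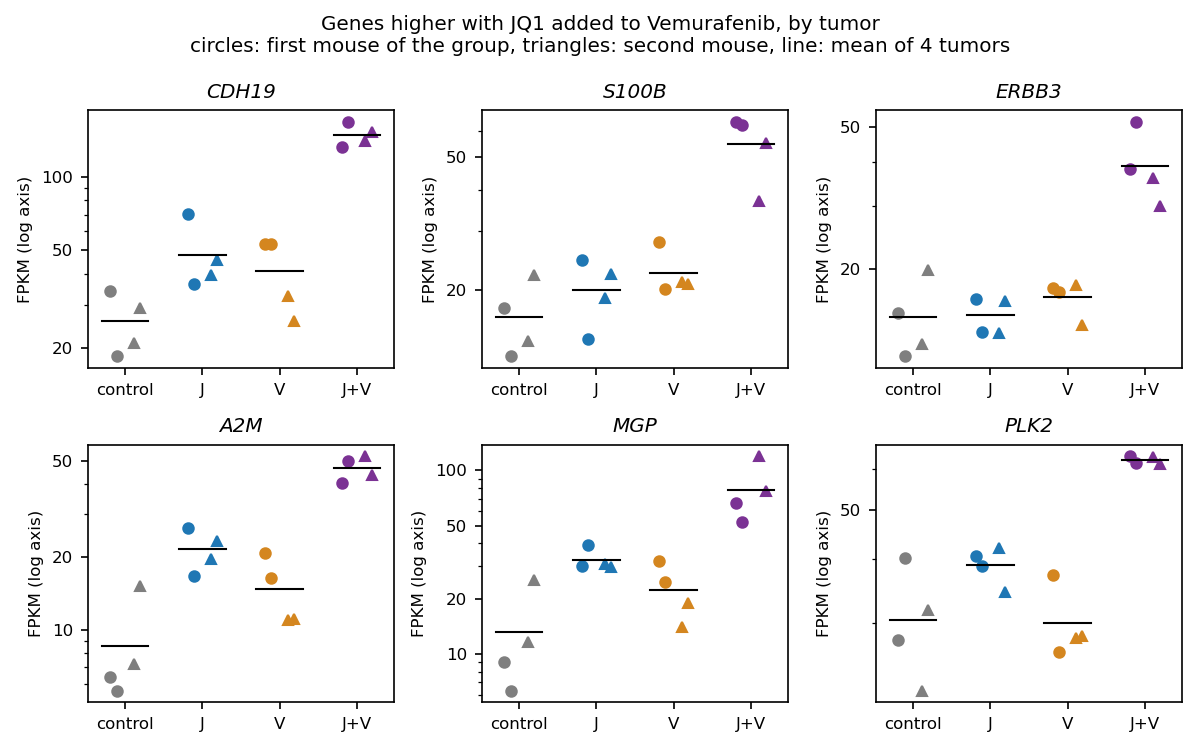
FPKM (log axis) of 6 genes that rose, per tumor, grouped as control, J, V and J+V, with circles and triangles for the 2 mice of a group and a line at the mean of 4 tumors. All 4 J+V tumors lie above all 4 V tumors in each gene, as in CDH19 with 132 to 167 against 25.8 to 53.1 FPKM.

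Other higher genes included single secreted and matrix proteins, although the list of 33 collagen and matrix genes went both ways, with 4 higher (12.1%) and 3 lower (9.09%), a median of -0.02 and 1 higher on averages per mouse. MGP, matrix Gla protein, an inhibitor of calcification, had 32.1, 24.5, 14.1 and 19.0 FPKM in V and 66.1, 52.2, 119 and 77.2 in J+V (1.79, adjusted p = 0.00629, but 0.0975 without mouse 19). A2M, a broad protease inhibitor, went from 20.7, 16.4, 11.0 and 11.1 FPKM to 40.5, 49.9, 52.0 and 43.5 (1.66, adjusted p = 0.00178). LOXL4, a lysyl oxidase that crosslinks collagen, rose by 1.34. Higher genes of other functions included ID4, an inhibitor of basic helix-loop-helix factors (1.28). FXYD3, a regulator of the sodium pump, rose by 1.84, the lipid transporter ABCA6 by 1.43, the muscarinic receptor CHRM3 by 1.20 and the raft protein RFTN2 by 1.21. CTLA4, an inhibitory receptor of T cells that melanoma cells can also carry, was at 2.40, 4.31, 2.42 and 3.84 FPKM in V and at 11.9, 12.5, 4.93 and 18.1 in J+V (1.63, adjusted p = 0.00607), in groups where the T cell gene CD3D had means of 0.146 and 0.163 FPKM. Of 20 secreted angiogenesis factors 5 rose and 0 fell (median 0.14), among them HGF, the ligand of MET, at 6.71 to 20.2 FPKM in V and 21.1 to 40.8 in J+V (1.13, adjusted p = 0.0385, not past the test in 13 of 25 alternative settings), and SEMA3C (0.76, adjusted p = 0.0015). Under a common total FPKM 1 of these 5 calls was left. The fibroblast marker LUM rose as well (4.41 to 7.89 and 8.82 to 18.6 FPKM, adjusted p = 0.0413, not past the test in 12 of 25 alternative settings), the only one of 11 tested fibroblast markers past the test, and the summed fibroblast markers were at 78.2 to 142 FPKM in V and 90.4 to 145 in J+V. Its part in the matrix genes was not tested.

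PLK2, a polo-like kinase that p53 induces, rose from 37.3, 26.3, 28.0 and 28.3 FPKM to 63.5, 61.6, 63.2 and 61.3 (1.06, standard error 0.14, adjusted p = 0.00113), with little spread among the J+V tumors, and was the only 1 of 25 tested p53 target genes to rise, while 3 fell. CDKN1A (p21), the p53 target that arrests the cycle, was at 6.45, 7.87, 7.06 and 8.55 FPKM in V and at 3.84, 4.93, 6.01 and 6.02 in J+V (-0.50, adjusted p = 0.0518), just short of the threshold though the groups did not overlap. CDKN1B (p27) was at 18.4 to 20.1 and 15.8 to 19.1 FPKM (adjusted p = 0.17).

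Of genes commonly used to read BET inhibition none rose, and several fell. HEXIM1, the inhibitor of P-TEFb that rises in many cells under BET inhibitors, had 12.4, 12.7, 13.5 and 15.4 FPKM in V and 12.2, 11.5, 10.2 and 11.2 in J+V (-0.25, adjusted p = 0.173), with all J+V tumors below V. SERPINI1, another such gene, was at 3.46, 6.13, 4.62 and 3.83 and at 4.47, 3.96, 2.64 and 5.44 FPKM (-0.12, adjusted p = 0.711). MYC, which falls under BET inhibitors in many blood cancers, was at 7.39, 3.71, 3.61 and 5.13 FPKM in V and at 5.18, 5.34, 5.16 and 4.95 in J+V (0.10, adjusted p = 0.724). BRD2, at 42.2, 39.6, 40.4 and 46.9 FPKM in V and 34.2, 34.0, 33.4 and 28.2 in J+V, was the 1 of 14 tested BET and P-TEFb genes to pass (-0.38, adjusted p = 0.0181), in the direction opposite to its known rise. That is 7.14% of the list, against 7.18% of all genes called lower. BRD2 did not pass the test in 7 of 25 alternative settings, among them averages per mouse and the fits without mouse 33 or mouse 19. BRD3 overlapped between the groups (adjusted p = 0.389). Of 9 tested genes known to rise under BET inhibitors 0 rose and 5 fell (55.6%, against 7.18% of all genes), 4 of them histone genes (HIST1H1C, HIST1H2BK, HIST1H2BD and HIST2H2BE) besides BRD2. These 4 are also in the replication-dependent histone list, so this share is not separate from the fall of that list. On averages per mouse 3 of the 9 were lower, without mouse 33 1 and without mouse 19 0. Of 7 tested genes known to fall 1 did, FOSL1, an AP-1 factor, from 18.5, 16.6, 20.9 and 35.3 FPKM to 8.01, 7.21, 19.4 and 13.1 (-0.95, adjusted p = 0.0428, not past the test in 13 of 25 alternative settings).

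Output genes of MAPK, the pathway that Vemurafenib targets, passed the test in few cases, and their levels differed between the mice of the J+V group. For V against control their median log2 fold change was -0.17, in a comparison where limma called 0 genes in the whole table. DUSP6, the ERK phosphatase that ERK itself induces, was at 99.2, 103, 89.7 and 106 FPKM in V and at 95.8, 100.4, 110 and 145 in J+V (0.16, adjusted p = 0.425). SPRY4 (25.9 to 33.5 and 30.1 to 39.2 FPKM) and TGFA (36.8 to 46.5 and 30.4 to 47.5) overlapped as well, with adjusted p of 0.31 and 0.673. CCND1, cyclin D1, was at 40.6 to 51.0 FPKM in V and 28.9 to 48.8 in J+V (-0.37, adjusted p = 0.0837). Of 22 MAPK output genes 2 fell and 0 rose, with a median of -0.04 against -0.03 for all genes, and 1 of these, PHLDA2, fell by 0.85. PHLDA2 did not pass the test in 14 of 24 alternative settings. The mean log2 level of the 22, relative to V, was -0.33 and -0.31 in 33L and 33R, below every V tumor (-0.10 to 0.13), but 0.12 and 0.0003 in 34L and 34R. Without mouse 34, 4 were lower (median -0.24), and without mouse 33, 0 were. Of 15 dual specificity phosphatases 3 fell, DUSP23 (-0.82), DUSP1 (-0.69) and DUSP3 (-0.48).

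Cholesterol supply genes were lower in part. INSIG1, the sterol sensor that holds SREBP in the endoplasmic reticulum, went from 12.6, 12.5, 15.8 and 20.4 FPKM to 6.21, 4.96, 8.43 and 5.94 (-1.19, adjusted p = 0.00336), and STARD4, a sterol carrier, fell by 1.15. SREBF2, the factor that activates these genes, fell by 0.80 (adjusted p = 0.00643). HMGCS1, an enzyme of the pathway, was at 20.5 to 36.7 and 14.2 to 20.4 FPKM without passing (adjusted p = 0.131). Of 26 listed genes 9 fell and 0 rose (median -0.43), 2 on averages per mouse and 0 without mouse 33. The desaturases SCD (-0.58) and FADS1 (-0.82) fell, whereas ABCA1, the cholesterol exporter, named after its value was seen, rose from 4.38 to 6.42 FPKM to 8.69 to 10.4 (0.77, adjusted p = 0.0269).

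**Figure D4:**
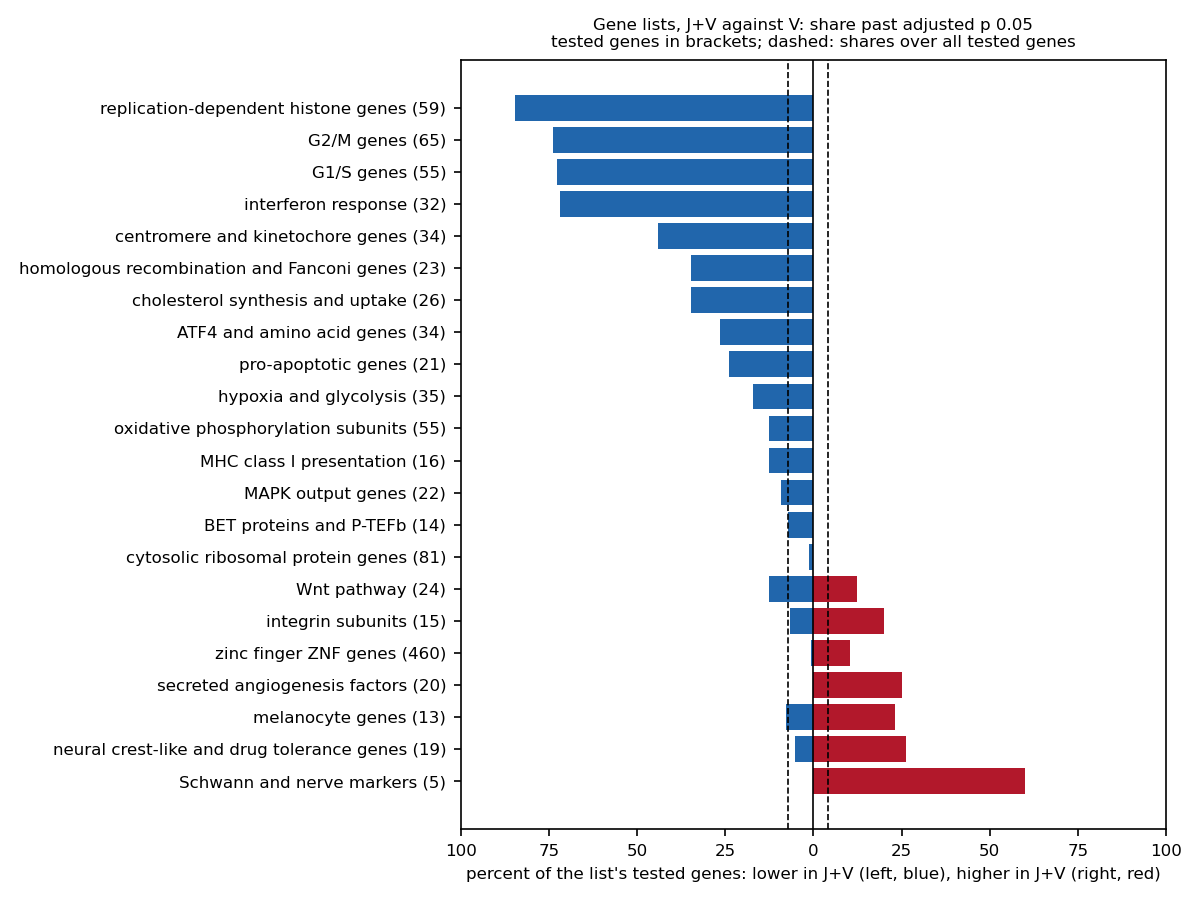
Percent of the tested genes of 22 lists that were lower (blue, left) or higher (red, right) in J+V than in V at an adjusted p below 0.05, with the number of tested genes in brackets and dashed lines at the shares over all tested genes, 7.18% lower and 4.18% higher. Cell cycle, histone and interferon lists lie far left of the background, while MAPK output, BET and ribosomal protein genes lie close to it.

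Several genes of invasion and signaling fell. MMP1, interstitial collagenase, had 25.2, 25.1, 20.1 and 20.2 FPKM in V and 4.00, 2.93, 6.01 and 13.4 in J+V (-1.91, adjusted p = 0.0106). PLAUR, the urokinase receptor, went from 14.8, 14.0, 14.8 and 18.3 FPKM to 4.64, 3.78, 7.80 and 8.65 (-1.31, adjusted p = 0.0015), and the protease inhibitor TFPI2 fell by 1.11. Of 13 tested genes of metalloproteinases and inhibitors 4 fell and 2 rose. IL11, a cytokine of the IL-6 family, fell from 5.38, 5.65, 6.02 and 9.26 FPKM to 1.54, 1.41, 2.20 and 2.76 (-1.52, adjusted p = 0.000956). DKK1, a secreted Wnt antagonist, fell by 1.49, while the receptors FZD3 (0.78) and FZD7 (0.79) rose, 3 genes in each direction among 24 of the Wnt pathway. BMP4, a morphogen, was at 30.0 to 41.4 FPKM in V and 12.5 to 20.5 in J+V (-1.03, adjusted p = 0.00421). SULT1B1, a sulfotransferase, fell by 1.86 and UTS2, a vasoactive peptide, by 1.68, the other 2 of the 12 largest decreases besides MMP1 and the interferon genes.

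Apoptosis genes were lower in part. Of 21 pro-apoptotic genes 5 fell (23.8%) and 0 rose (median -0.24), with 0 lower on averages per mouse and 0 without mouse 33, among them BAX, at 8.31 to 12.4 FPKM in V and 4.51 to 8.31 in J+V (-0.65, adjusted p = 0.0228), PMAIP1 (-0.59) and FAS (-0.50). BCL2L11 (BIM), the BH3-only protein that ERK inhibition stabilizes, was at 8.80, 8.18, 7.48 and 5.49 FPKM in V and at 9.01, 7.07, 9.53 and 4.10 in J+V (-0.05, adjusted p = 0.889). The mean log2 level of the list, relative to V, was -0.06 to 0.11 in V and -0.32 to -0.23 in J+V tumors, and that of the 14 anti-apoptotic genes -0.09 to 0.08 and -0.29 to -0.10. Of these 14 BIRC5, also a mitotic gene, was the 1 that fell. MCL1 (163 to 207 and 150 to 226 FPKM) and BCL2L1 (6.79 to 11.0 and 5.49 to 8.08) did not pass (adjusted p = 0.547 and 0.517).

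Among housekeeping programs, 1 of 81 ribosomal protein genes fell and 2 of 44 genes of ribosome biogenesis. Of 55 subunits of oxidative phosphorylation 7 fell (median -0.26), led by ATP5D (-0.92), of 34 genes of ATF4 and amino acid supply 9, led by SLC7A5 (-0.99) and ATF5 (-0.85), and of 35 hypoxia and glycolysis genes 6, led by ENO1 (-0.64). Their shares called lower were 12.7%, 26.5% and 17.1%, against 7.18% of all genes. The medians of the last 3 lists (-0.26, -0.31 and -0.21) lay below the -0.03 of all genes. Under a common total FPKM 23, 20 and 13 members were lower. On averages per mouse 1, 3 and 3 were, and without mouse 33 0 in each list. The ZNF zinc finger genes, mostly repressors with a KRAB domain, went the other way, with 48 of 460 higher and 3 lower (median 0.13), but under a common total FPKM 8 were higher and 17 lower (median -0.02). Of 125 C/D box small nucleolar RNAs 4 were higher. SNORD12B was at 33.5, 230, 169 and 290 FPKM in V and at 505, 425, 462 and 548 in J+V (1.79, adjusted p = 0.0305), and SNORD23 was listed at 0 in 3 of the 4 V tumors, at 19.4 in 19R and at 24.4 to 52.3 in J+V. SNORA58, of the H/ACA box, was the 1 lower short RNA named by rule (-0.96). FPKM of such short transcripts are uncertain, since few fragments fit them.

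The study put forward lists of genes from the same tumors, which are no independent evidence of their direction. It gave them for J+V against all other groups, from DESeq on read counts. Here they are tested against V alone, with limma on FPKM, so a gene that does not pass is no check of the study's list. All 14 tested genes given as examples of pathways fell (median -0.77), from CCNE1 at 8.57 to 10.3 and 4.79 to 6.90 FPKM to CCNA2 at 24.8 to 37.9 and 9.62 to 20.3. Of regulators given as lower 5 of 7 tested fell (median -0.81), among them HMGA1, from 121, 102, 123 and 144 FPKM to 42.0, 49.8, 68.3 and 66.8, and SREBF2. Of regulators given as higher 4 of 7 rose (median 0.91), while LEF1 (54.6 to 71.6 and 60.3 to 127 FPKM, adjusted p = 0.0522), NFATC2 and TBX19 did not pass. Of 13 genes of apoptosis and survival 3 fell (median -0.33), BIRC5, AKT1 (-0.42) and APAF1 (-0.41). AKT1 did not pass the test in 10 of 25 alternative settings and APAF1 in 9 of 25. On averages per mouse 5 pathway examples, 4 regulators given as lower, 2 given as higher and 1 apoptosis gene passed in these directions. Without mouse 33 these counts were 3, 3, 1 and 1. Genes of these lists that were under 1 FPKM in too many tumors, such as HAND2 (highest value 1.39 FPKM) and NKX6-1 (1.29), were not tested.

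Whether JQ1 did more with Vemurafenib than without it was tested as the difference between J+V minus V and J minus control. limma called 0 of the 12962 genes (0%), with 1447 at an unadjusted p below 0.05, and the smallest adjusted p was 0.128. On averages per mouse 1 gene was called, and without J+V mouse 34 195. The 2 contrasts share no tumor. Across the 12962 genes, which are not independent replicates, their log2 fold changes correlated with r = 0.304. In the interferon list the medians were -0.56 for J against control and -1.28 for J+V against V. In the G2/M list they were -0.12 and -0.88. Members of a list are not independent replicates, and whether a list differed between the contrasts was not tested. Among the genes with the smallest unadjusted p were IL11 (1.5e-05), HMGA1 (3.8e-05) and ERBB3 (0.00032), none past the adjustment.

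**Figure D5:**
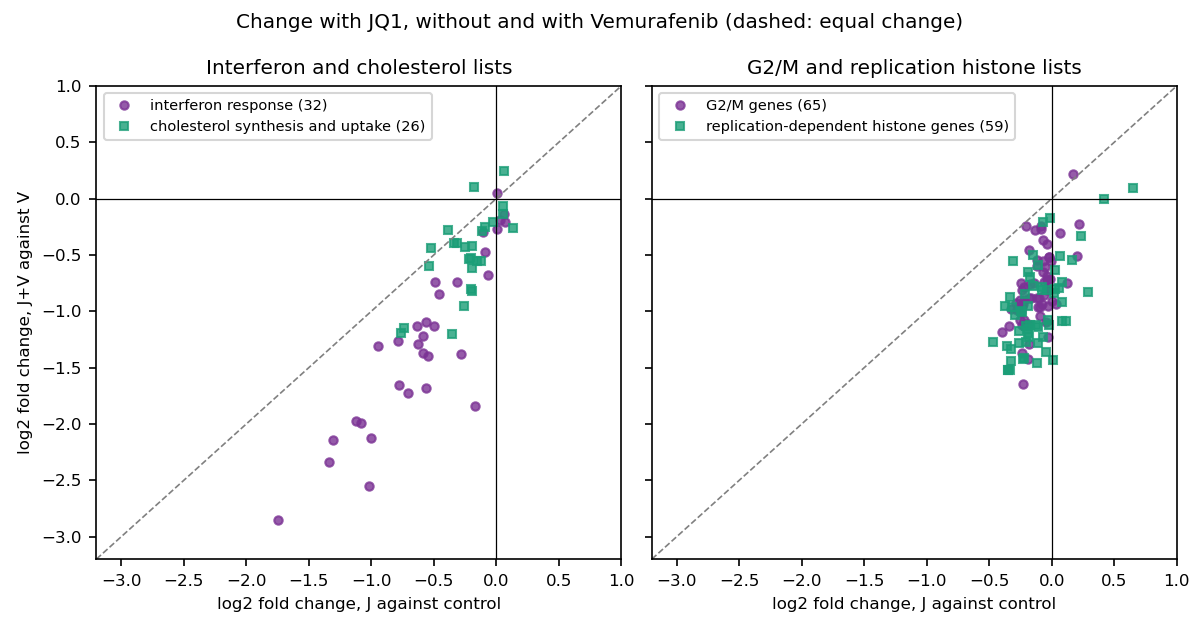
Log2 fold change with JQ1 added to Vemurafenib (J+V against V, vertical) against that with JQ1 alone (J against control, horizontal) for the tested genes of 4 lists, with a dashed line where both are equal. Interferon genes spread along both axes (medians -0.56 and -1.28), while G2/M and histone genes lie near 0 on the horizontal axis (medians -0.12 and -0.15) and at -0.88 and -1.01 on the vertical.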

How the data were processed

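The authors deposited FPKM values for 23260 gene symbols in 16 tumors. Per the labels and the study's methods, RNA was depleted of ribosomal RNA (RiboZero), libraries were made with ScriptSeq v2, and reads were handled with bcl2fastq, mapped to hg19 with TopHat2 and quantified with Cufflinks, whose versions, annotation and treatment of mouse reads the sources used here do not give. From these FPKM, log2(FPKM + 0.5) was fitted with limma 3.58.1 in R 4.3.3, with 4 group means over all 16 tumors, a mean-variance trend in the moderation and Benjamini-Hochberg adjustment over 12962 genes. A mouse block was estimated at a negative correlation and set to 0. Nothing says that the 2 tumors of a mouse are independent, so p-values measure the spread between tumors. The fit was tested on simulated data with independent noise in each tumor and no mouse effect. There it recovered 36 of 67 genes changed 1.5 times, 61 of 67 changed 2 times and 62 of 66 changed 4 times. Of its 164 calls 5 were false. Such a simulation cannot speak to differences between mice. Named genes were those with the largest changes (12 per direction, mean FPKM of at least 5, no overlap of groups), up to 3 per list, fixed genes and the study's own lists, some of which are not reported here. Members and lists were chosen with earlier results of these data known. Promoters are RefSeq's (GRCh38.p14), matched by symbol or synonym for 9912 of the tested genes. Alternatives were pseudocounts of 0.1 and 1, filters, scalings, mouse and flank terms, robust moderation and leaving out tumors and mice. Plots were made with matplotlib 3.10.9.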

Additional observations from a re-analysis of the deposited data

Results flagged for a closer look

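In groups of 4 tumors, 372 groups of values in the text were examined for a tumor whose gap to the nearest other, as a share of the group's range, exceeded Dixon's critical value, and 27 were found, where chance gives about 1 in 20. Of V tumors, 19R stood above the others for IL11 (9.26 FPKM, others 5.38 to 6.02), MYBL2 (7.89, others 5.09 to 5.23), UHRF1 (22.0, others 12.9 to 14.4), SLC7A5 (4.59, others 1.71 to 2.00) and HIST1H2BD (240.7, others 161.5 to 171.9). It also stood above them for SNORD23 (19.4, others listed at 0) and for the pigment genes PMEL (0.215) and TYR (0.305). V tumor 16R stood above the others for SULT1B1 (19.96 FPKM, others 8.18 to 9.35), FZD3 (7.40, others 5.23 to 5.43), IRF1 (4.95, others 3.56 to 3.65), C3 (6.36, others 3.56 to 3.79) and SPP1 (105, others 53 to 58.8), and 16L for S100B (27.9, others 20.2 to 21.2). IFNB1 was listed above 0 in 19L of the V tumors (0.108 FPKM) and in 33L of the J+V tumors (0.102).
Of J+V tumors, 34L stood above the others for AXL (10.2 FPKM, others 4.98 to 5.85) and PMP22 (65.0, others 31.2 to 35.6). Tumor 33L stood below the others for BCL2L1 (5.49, others 7.65 to 8.08) and CHRM3 (6.80, others 9.68 to 10.2), and 34R for BRD2 (28.2, others 33.4 to 34.2) and GPR37 (1.18, others 1.80 to 1.93). SPP1 was at 65.7 FPKM in 34L and at 189 to 197 in the others, IFIH1 at 3.025 in 34L and at 4.76 to 4.86 in the others, and LPL at 2.16 in 33R and at 1.25 to 1.39 in the others. The mean log2 level of the collagen and matrix genes, relative to V, was 0.36 in 34L and -0.153 to -0.116 in the others. The mean log2 level of the pro-apoptotic genes, relative to V, was -0.316 in 33R and -0.241 to -0.229 in the others.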

How the results depend on the processing

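Of 25 alternative settings, those that moved the number of genes called in J+V against V (1473, 542 higher and 931 lower) by over 1.5 times were rescaling to a common total FPKM (2310, with 162 higher and 2148 lower), averaging the tumors of a mouse (435, 174 higher and 261 lower) and a fit of only the 8 tumors (618, 232 higher and 386 lower). These last 2 settings fit fewer values. Leaving out single tumors or mice gave 147 to 1738 calls, 43 to 675 higher and 104 to 1063 lower, and 85 to 353 genes at the study's thresholds (170), with the lowest of each without mouse 33. Using the estimated correlation between tumors of a mouse, which was negative, in place of 0 gave 1792 calls. For the difference between the JQ1 effects with and without Vemurafenib (0 genes), averaging the tumors of a mouse gave 1 and leaving out tumors or mice 0 to 195, the highest without mouse 34. Without a mouse, a group is left with 2 tumors of a single mouse.
Of 122 named genes that passed the test 35 passed in every setting, 42 were lost in 1 to 3 and 45 in more, and none changed direction. On averages per mouse 58 passed, without mouse 33 45, without mouse 19 49, and without V tumor 19R 89. Of 31 named genes that did not pass, 9 did in at least 1 setting. Of 23 list medians 6 changed sign in a setting. Those of ribosomal protein, MAPK output and collagen and matrix genes lie near 0, that of neural crest-like genes became -0.38 without mouse 34, and that of angiogenesis factors -0.04 without it. That of ZNF genes became -0.02 under a common total FPKM. The cause was not tested. Depth is unknown, and 2 mice a group limit what any test can separate from a difference between mice.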

Other observations

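Other groups included some with calls in one direction and some with calls in both. Of 34 genes of centromeres and kinetochores 15 fell (44.1%, against 7.18% of all genes) and 0 rose (median -0.60), led by HJURP (-1.12) and CENPA (-1.12). Of 33 kinesins 11 fell (33.3%) and 2 rose, led by KIF4A (-1.15) and KIF2C (-1.08). HJURP, CENPA and KIF2C are also in the G2/M list, so these counts are not separate from it. On averages per mouse 5 centromere and kinetochore genes and 2 kinesins were lower, and without mouse 33 0 and 3. Of 9 tested high mobility group genes 5 fell and 0 rose, among them HMGB3 (-1.07). HOX genes, which set position along the body axis, included 3 lower of 27 (HOXB4, HOXA5 and HOXA10, -0.48 to -0.28), or 11.1% against 7.18% of all genes. On averages per mouse 0 HOX genes were lower. HOXB4 did not pass in 15 of 24 alternative settings, HOXA5 in 14 of 25 and HOXA10 in 16 of 25. SR and hnRNP splicing factors had 6 lower (17.6%) and 1 higher of 34. Integrin subunits had 3 higher and 1 lower of 15, with ITGA9 at 1.80 to 2.42 FPKM in V and 3.31 to 7.99 in J+V and ITGA1 at 144 to 274 and 93.2 to 177. ITGA1 did not pass the test in 14 of 25 alternative settings. PSMB8, an interferon-inducible subunit of the immunoproteasome, fell by 0.52, 1 of 2 among 16 genes of MHC class I presentation.
Some genes were named after their values were seen. MALAT1, an abundant nuclear long noncoding RNA, was at 557, 1009, 1271 and 689 FPKM in V and at 1561, 1903, 1445 and 1369 in J+V (0.89, adjusted p = 0.0144). SPP1 (osteopontin) was at 53, 105, 58.7 and 58.8 FPKM in V and at 197, 194, 65.7 and 189 in J+V (1.15, adjusted p = 0.0337), with 34L inside the range of V, and complement C3 was at 3.56 to 6.36 and 5.76 to 16.1 FPKM (1.26, adjusted p = 0.0119). SPP1 did not pass the test in 12 of 25 alternative settings. The homeobox gene MSX1 fell from 4.35, 4.95, 6.09 and 12.1 FPKM to 1.95, 2.32, 2.80 and 3.11 (-1.18, adjusted p = 0.0114), and NR2F1, a nuclear receptor of neural crest cells, from 6.74 to 9.08 FPKM to 2.58 to 3.83 (-1.23, adjusted p = 0.000956), against the direction of CDH19. F2RL1, a receptor cleaved by proteases, fell from 21.0 to 24.4 FPKM to 7.06 to 12.6 (-1.23, adjusted p = 0.0015).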
